A study of Mus musculus with 4 samples.

Results

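Isg15 and the enzymes that attach it to proteins and take it off again were followed by RNA sequencing of mouse embryonic microglia, brain-resident macrophages. The genes were taken by symbol from the deposited count table. They are Isg15, Uba7, Ube2l6, Herc6 and Usp18, 5 of its 26051 features. The study deleted Hat1, a histone acetyltransferase gene, conditionally with Cre recombinase and loxP sites, and collected microglia at embryonic day 14. The ko group holds libraries 1 and 3 and the ff group libraries 2 and 5, named by their titles. The labels neither spell out ff nor name the Cre driver, the strain or the deleted exons, and ff served as the reference for every difference given here. They do not say whether a library came from 1 embryo or from several. The ko libraries differed in Y-linked and Xist counts, given below, and so were not repeats of 1 RNA sample. For the ff libraries this stays unknown, and their part of the spread on which the p-values rest may be technical.

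ISG15 is a small protein built of a pair of ubiquitin-like domains and is joined to other proteins much as ubiquitin is. UBA7 activates it, UBE2L6 carries it, and a ligase hands it to the target. In human cells the main ligase is HERC5, a gene that mice lack, and HERC6 does this work in mouse cells. USP18 is a protease that cuts ISG15 from its targets, and it also binds the type I interferon receptor and dampens its signalling, a role that has been described in mouse microglia. All of these genes are known to be induced by type I interferon.

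The libraries held between 14814846 and 18990917 counts, and libraries of the same group differed by more than sampling noise. Counts of Hat1 were 650 (ff 2), 1149 (ff 5), 737 (ko 1) and 581 (ko 3), which is 44.3, 71.4, 39.2 and 36.6 after scaling for depth (counts per library scaled to a common size, CPM), so both ko libraries lay below both ff libraries. Its log2 fold change, ko minus ff, was -0.61 ± 0.23 (SE; adjusted p = 0.298, edgeR quasi-likelihood test), so the targeted gene did not pass the threshold of 0.05. This depended on single libraries and on the filter. Hat1 stood at -0.91 without ff 2 and at -0.67 without ko 1, and passed in both. It stood at -0.25 without ff 5 and at -0.57 without ko 3, and passed in neither. With all libraries it stood at -0.61 and passed without a filter on low counts (adjusted p = 2.30e-05). It did not pass with DESeq2 (adjusted p = 0.0821) or limma-voom (0.275). Nor did it pass by edgeR with DESeq2 size factors (0.287), without scaling (0.332) or with at least 50 counts in 2 libraries (0.274). Reads of transcripts that lack the deleted exons may be in this count, which therefore checks the titles only in part. Ko library 1 stood apart in other transcripts. It alone held Y-linked counts (3188 of Ddx3y, against 0 in each other library). It held 3 counts of Xist, against 2847 (ff 2), 3646 (ff 5) and 3986 (ko 3). By these counts ko 1 came from male tissue and the other libraries from female tissue. Ko library 1 also held 156 counts of the neutrophil granule gene Mpo against at most 2 elsewhere. The log2 fold change of every member is therefore also given with this library left out. Microglial markers such as P2ry12 (13988 to 18469 counts per library) were present, and so were markers of border-associated macrophages such as Mrc1 (86012 to 108509). In bulk samples such as these, a change in the number of cells of a type cannot be told apart from a change in RNA per cell.

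The enzymes of the system rose in the ko libraries and the change of the modifier itself, which had few counts, did not pass the test. Uba7, Ube2l6, Herc6 and Usp18 rose between 1.52-fold and 3.35-fold, 4 of the 5 members. Over all 15840 genes tested, 1.19% were called higher. None of the 5 was called lower. Both ko libraries lay above both ff libraries in all 5 members, a pattern found in 25.8% of all tested genes. The median log2 fold change of the members was 1.31, beside 0.01 over all tested genes.

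**Figure D1:**
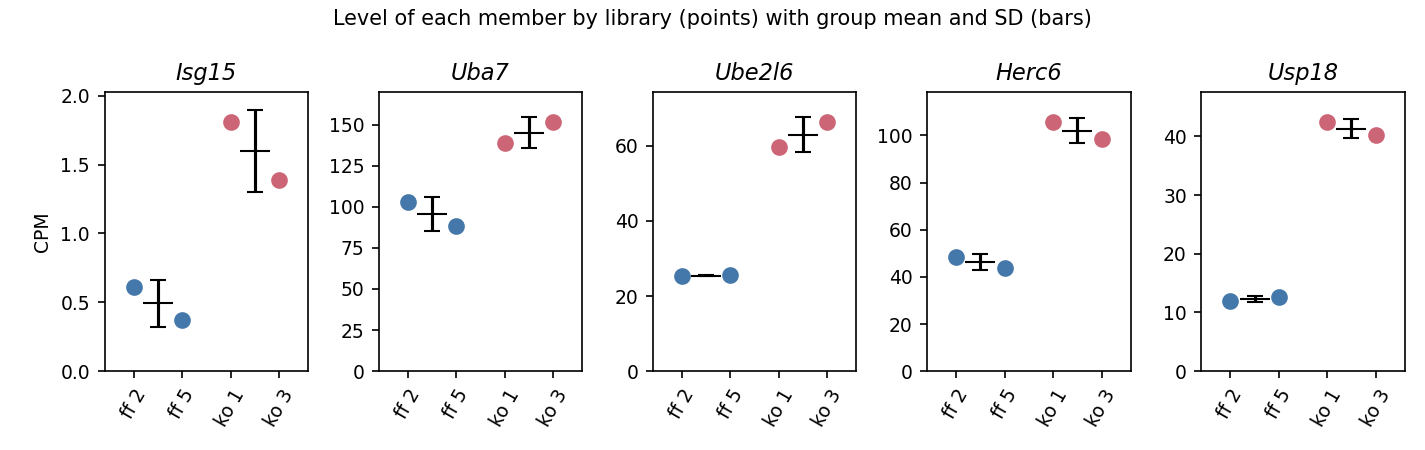
Level of each member in counts scaled to a common library size (CPM, linear axis from 0) in the 2 ff libraries (blue) and the 2 ko libraries (red), with the group mean and SD as black bars. The groups do not overlap in any panel, and the Isg15 axis ends below 2.1 CPM while the Uba7 axis passes 100 CPM.

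Isg15 encodes the modifier. It was counted 9 times in ff 2, 6 times in ff 5, 34 times in ko 1 and 22 times in ko 3. On the scaled library sizes this was 0.614 and 0.373 CPM in ff and 1.81 and 1.39 CPM in ko, or 0.493 ± 0.170 and 1.60 ± 0.299 CPM (SD, n = 2 each). The lower ko library thus lay above the higher ff library. The log2 fold change was 1.70 ± 0.52 (SE), with an unadjusted p of 0.0116 and an adjusted p of 0.184 by edgeR. With ko library 1 left out, it was 1.47 (adjusted p = 0.386). The summed counts, 15 in ff and 56 in ko, give a ratio of 3.31 after division by the library totals, with an exact 95% counting interval of 1.85 to 6.30. That interval covers counting error only. Isg15 was the member with the fewest counts, and its standard error was the largest of the 5. The longest match of its 756-base transcript to another GENCODE M21 transcript was the processed pseudogene AC151275.1, with 95.2% identity over 482 bases. How the authors' counting treated reads that match more than 1 place is not given in the sources used here, so the Isg15 level is uncertain beyond its counting error, and the part of such reads was not tested.

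The sequence just before the Isg15 gene is shown because the interferon-stimulated response element, a site through which type I interferon induces its target genes, was searched in the promoters of the members. RefSeq windows on GRCm38.p6, another build than the GRCm39 of the counts, run from 250 bases before to 50 after the gene start, and 4 members matched by symbol. The core of that element, GAAA and GAAA with any 2 bases between them, was sought on both strands, and capitals mark its matches. The Isg15 window is chr4:156200769-156201068 on the minus strand, the Uba7 window chr9:107975317-107975616 on the plus strand, and the Herc6 window chr6:57580742-57581041 on the plus strand.
Isg15: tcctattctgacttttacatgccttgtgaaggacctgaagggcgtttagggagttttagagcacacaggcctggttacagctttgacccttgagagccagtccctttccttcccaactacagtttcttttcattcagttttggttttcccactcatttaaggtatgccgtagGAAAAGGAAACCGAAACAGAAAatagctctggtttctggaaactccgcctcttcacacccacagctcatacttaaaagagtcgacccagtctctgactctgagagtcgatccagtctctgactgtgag
Uba7: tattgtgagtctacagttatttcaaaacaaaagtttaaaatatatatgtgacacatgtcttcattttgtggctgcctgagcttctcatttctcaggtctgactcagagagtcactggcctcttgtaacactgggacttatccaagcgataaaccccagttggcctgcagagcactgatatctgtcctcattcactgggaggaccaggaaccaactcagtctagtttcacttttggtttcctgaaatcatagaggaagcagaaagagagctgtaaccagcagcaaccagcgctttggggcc
Herc6: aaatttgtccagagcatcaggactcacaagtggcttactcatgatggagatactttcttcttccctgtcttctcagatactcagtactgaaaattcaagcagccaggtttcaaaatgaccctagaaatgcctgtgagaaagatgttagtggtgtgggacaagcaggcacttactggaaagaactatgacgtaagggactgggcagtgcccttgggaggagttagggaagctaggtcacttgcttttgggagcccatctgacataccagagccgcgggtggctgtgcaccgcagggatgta
The Isg15 window held 3 overlapping matches, GAAAAGGAAA, GAAACCGAAA and GAAACAGAAA, whose first bases lie at -78, -72 and -66 from the gene start. No match was found in the Uba7 and Herc6 windows or in that of Ube2l6 (chr2:84798578-84798877, plus strand). Over 32851 such windows 3.44% held at least 1 match. The element TTCNNNGAA, the gamma-activated site, which reads alike on both strands, was found in none of the 4 windows and in 8.30% of all. A match is a description of these letters, and its absence says nothing of the window's use.

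Uba7 encodes the activating enzyme. Its level was 102.7 (ff 2), 88.1 (ff 5), 138.5 (ko 1) and 151.6 (ko 3) CPM. The groups did not overlap, although ff library 2 lay closer to ko than ff library 5 did. Uba7 rose 1.52-fold, from 95.4 ± 10.3 to 145.1 ± 9.24 CPM (SD, n = 2 each), the smallest rise among the members, with a log2 fold change of 0.61 ± 0.10 (SE) and an adjusted p of 0.0287. This call was close to the threshold. It was lost without ff library 5, where the log2 fold change was 0.47 and the adjusted p 0.0502, and with limma-voom, where the adjusted p was 0.0503. Without ko library 1 the log2 fold change was 0.66.

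Ube2l6 encodes the conjugating enzyme that takes ISG15 from UBA7. It stood at 25.4 (ff 2), 25.5 (ff 5), 59.6 (ko 1) and 66.3 (ko 3) CPM. The ff libraries were nearly equal and both ko libraries lay more than 30 CPM above them. Ube2l6 rose 2.47-fold, from 25.4 ± 0.117 to 63.0 ± 4.74 CPM (SD, n = 2 each), with a log2 fold change of 1.31 ± 0.11 (SE) and an adjusted p of 0.000641. With ko library 1 left out, it was 1.37. Bases 977 to 1469 of its 1560-base transcript resemble a stretch of Prss35 with 89.4% identity, and 19 genes in all, Prss35 among them, matched at least 150 bases of the Ube2l6 transcript.

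Herc6 encodes the ligase. It stood at 48.5 (ff 2), 43.9 (ff 5), 105.7 (ko 1) and 98.4 (ko 3) CPM, again without overlap. Herc6 rose 2.21-fold, from 46.2 ± 3.27 to 102.1 ± 5.16 CPM (SD, n = 2 each), with a log2 fold change of 1.14 ± 0.09 (SE) and an adjusted p of 0.000641. With ko library 1 left out, it was 1.08. GENCODE M21 lists a transcript of Gm45193 that is identical to Herc6 over 688 bases.

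Usp18 encodes the protease that removes ISG15. Its level was 12 (ff 2), 12.7 (ff 5), 42.5 (ko 1) and 40.2 (ko 3) CPM. Libraries of a group lay within 3 CPM of each other, and the groups lay far apart. Usp18 rose 3.35-fold, from 12.3 ± 0.475 to 41.4 ± 1.59 CPM (SD, n = 2 each), with a log2 fold change of 1.74 ± 0.12 (SE) and an adjusted p of 0.000297. With ko library 1 left out, it was 1.69. Its fold change was the highest among the 4 called members and ranked 133 of 15840 tested genes, where Ube2l6 ranked 300, Herc6 419 and Uba7 1295. Gm44148, annotated as a noncoding RNA and identical to the Usp18 transcript over 126 bases, had at most 4 counts in any library.

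**Figure D2:**
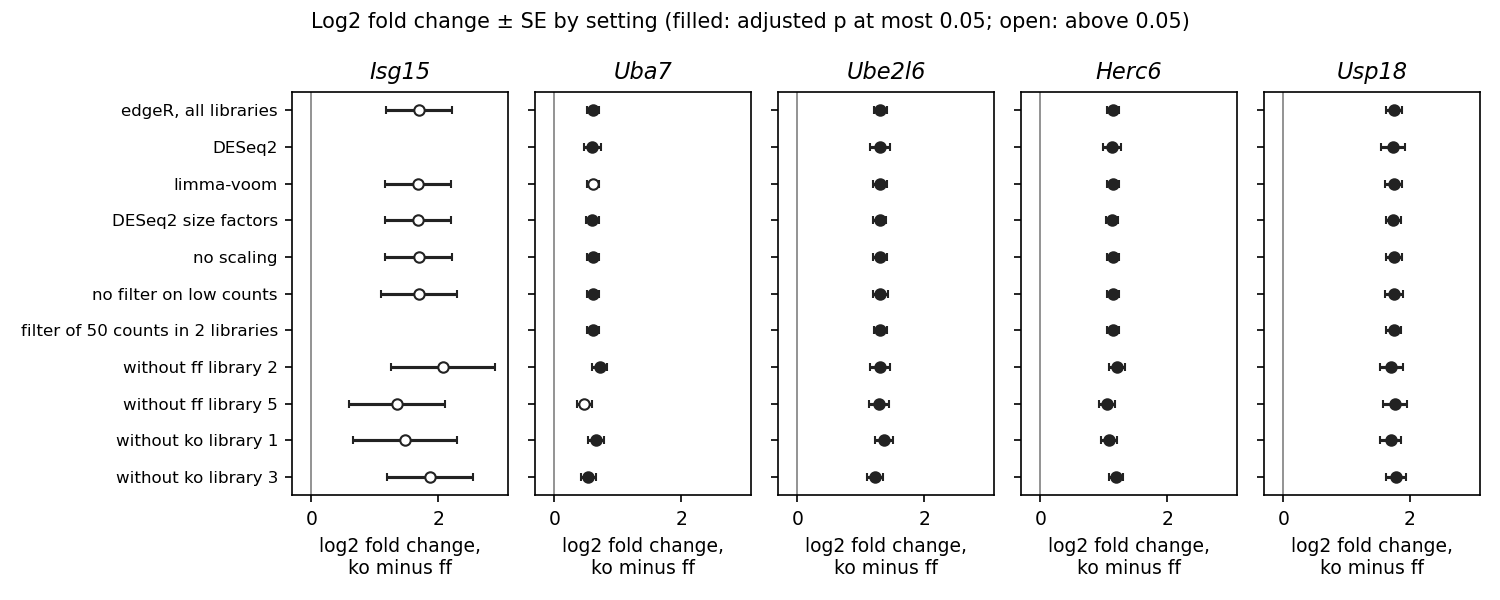
Log2 fold change of each member, ko minus ff, with its standard error, under each setting of the analysis. Filled points have an adjusted p of at most 0.05. Every point lies above 0. Ube2l6, Herc6 and Usp18 are filled in every row, Uba7 is open with limma-voom and without ff library 5, and Isg15 is open wherever it has an adjusted p.

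The log2 ratios of the removing enzyme to the attaching enzymes and to the modifier were compared by library. The log2 ratio of Usp18 to Uba7 (of CPM) was -3.10 (ff 2), -2.80 (ff 5), -1.71 (ko 1) and -1.91 (ko 3). The same ratio to Herc6 was -2.02 and -1.79 in ff and -1.32 and -1.29 in ko, and that to Ube2l6 was -1.08 and -1.01 in ff and -0.49 and -0.72 in ko. In all 3 ratios both ko libraries lay above both ff libraries. The 3 share Usp18, the called member with the highest fold change, so they are not separate observations. The share of other gene pairs with this pattern was not computed. The log2 ratio of Usp18 to Isg15 was 4.29 (ff 2), 5.09 (ff 5), 4.55 (ko 1) and 4.86 (ko 3), and here the groups overlapped. The ratios are a description, and whether the fold changes of the members differ from each other was not tested. An exact two-sided permutation of 2 libraries against 2 cannot give a p under 0.33.

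Levels of different genes were compared per kilobase of the longest protein-coding transcript in GENCODE M21. In ff the order was Uba7 (29.9 ± 3.23 CPM per kb), Ube2l6 (16.3 ± 0.0749), Herc6 (9.70 ± 0.687), Usp18 (6.97 ± 0.268) and Isg15 (0.652 ± 0.225). Each step down exceeded the SDs of its neighbours. In ko Uba7 stood at 45.4 ± 2.89 CPM per kb and Ube2l6 at 40.4 ± 3.04, and Usp18 at 23.4 ± 0.900 and Herc6 at 21.4 ± 1.08, while Isg15 remained last at 2.11 ± 0.395. Within each of these pairs the means differed by less than the sum of their SDs. Within each ko library the order was the same. Uba7 stood at 43.4 against 38.2 for Ube2l6 in ko 1, and at 47.4 against 42.5 in ko 3. Usp18 stood at 24.0 against 22.2 for Herc6 in ko 1, and at 22.7 against 20.6 in ko 3. This order was not tested and is not settled. Summed over the 5 members, the level per kilobase was 66.2 (ff 2), 60.8 (ff 5), 130.1 (ko 1) and 135.2 (ko 3), 2.09-fold higher in the mean. Uba7 made up 48.6% and 45.3% of this sum in ff and 33.3% and 35.1% in ko. Usp18 made up 10.2% and 11.8% in ff and 18.4% and 16.8% in ko. Isg15 contributed at most 1.84% in any library, a share that carries the uncertainty of its level given above. How far reads that match more than 1 place affect these levels and shares was not tested.

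**Figure D3:**
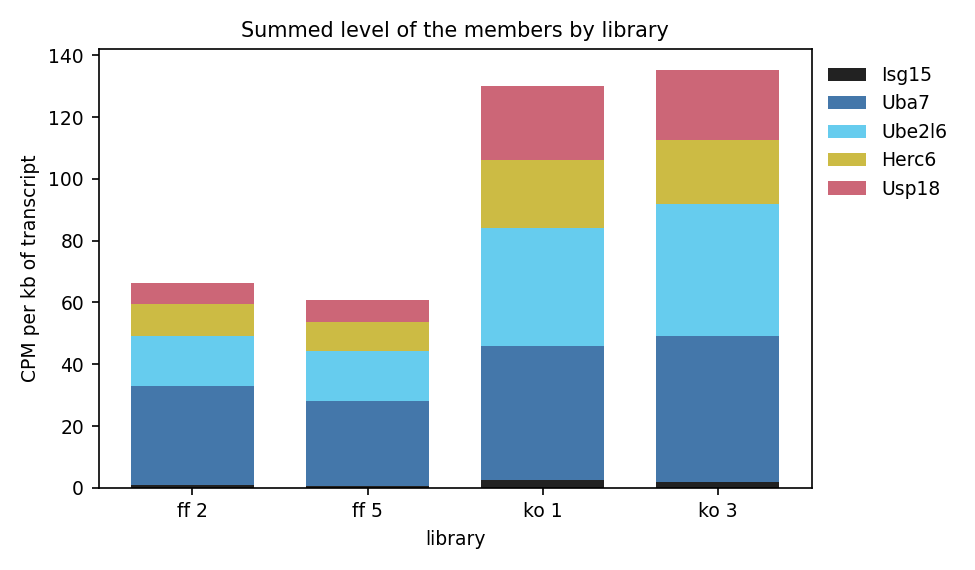
Stacked level of the members in CPM per kilobase of transcript (linear axis from 0) in each library, without error bars since each bar is 1 library. The ko bars reach 130.1 and 135.2, the ff bars 66.2 and 60.8, and the Isg15 segment at the foot is barely visible.

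No other tested gene of the members' families was called by edgeR, where 1.70% of all tested genes were. At that share few calls fall in lists this short, so 0 is not a result about these families. Over all tested genes 16.2% had an unadjusted p under 0.05, DESeq2 called 3.5% and limma-voom 1.1%. Of the other 45 tested genes listed for the Usp family, most of which encode ubiquitin-specific proteases, 0 were called by edgeR, with a median log2 fold change of -0.13. At an unadjusted p under 0.05 there were 9, DESeq2 called 1 and limma-voom 0. The most expressed, Usp8 and Usp22, had 231.6 and 230.0, and 168.8 and 169.6 CPM in ff libraries 2 and 5, against 201.8 and 220.2, and 147.6 and 160.1 in ko libraries 1 and 3 (adjusted p = 0.455 and 0.429). Of 32 other conjugating enzymes 0 were called by edgeR, with a median of 0.09, 3 at an unadjusted p under 0.05, 2 by DESeq2 and 0 by limma-voom. Ube2l3, the ubiquitin enzyme closest to Ube2l6, had 439.2, 436.5, 441.3 and 435.3 CPM in ff libraries 2 and 5 and ko libraries 1 and 3, a log2 fold change of 0.00 ± 0.07 (SE). Ube2d3 had 292.1 and 302.5 CPM in ff, and 502.1 and 356.6 in ko libraries 1 and 3 (adjusted p = 0.218), so the ko libraries themselves lay apart.

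Of 9 other activating enzymes 0 were called by edgeR, with 0 at an unadjusted p under 0.05 and 0 by DESeq2 or limma-voom, and a median log2 fold change of 0.04. Uba2 and Sae1, which activate SUMO modifiers, had log2 fold changes of 0.04 ± 0.08 and 0.20 ± 0.09 (SE). The 4 other Herc genes gave the same counts of 0 by all 3 tools and at an unadjusted p under 0.05, with a median of -0.03. Herc1 and Herc4, the most expressed, had log2 fold changes of -0.16 ± 0.12 and -0.13 ± 0.08. Of 14 tested genes for ubiquitin and ubiquitin-like modifiers 0 were called by edgeR, with a median of 0.20, 4 at an unadjusted p under 0.05, 2 by DESeq2 and 0 by limma-voom. Ubb, a polyubiquitin gene, had 2070 (ff 2), 1927 (ff 5), 1902 (ko 1) and 2117 (ko 3) CPM, with full overlap. The edgeR counts moved with the libraries and the filter, and so did the share called over all tested genes, 1.70% with all libraries. Without ko library 3 they were 3 modifiers, 1 activating enzyme, 2 conjugating enzymes and 3 Usp genes, where 7.34% of all genes were called. In the same order they were 2, 0, 2 and 3 without ko library 1 (6.07% of all genes), 2, 0, 1 and 1 without ff library 5 (2.73%), 2, 0, 3 and 3 without a filter on low counts (5.32%), and 1, 0, 1 and 0 without scaling (2.30%).

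**Figure D4:**
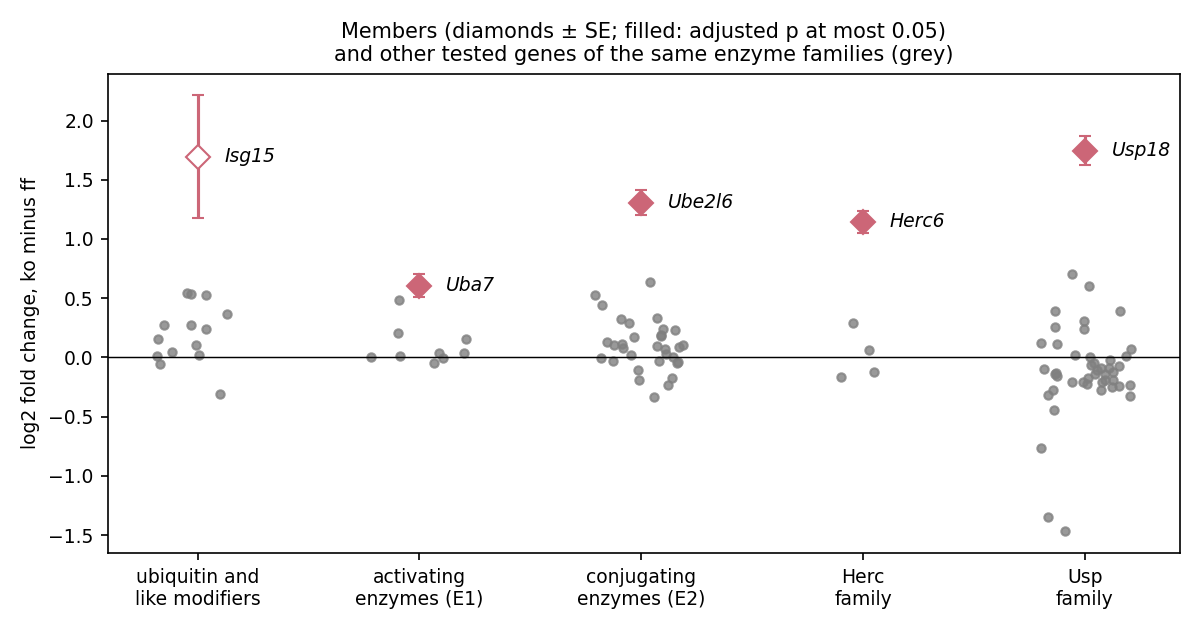
Log2 fold change, ko minus ff, of each member (diamond with SE, filled where the adjusted p is at most 0.05) and of the other tested genes of its family (grey points, spread sideways for legibility). Each diamond lies above all grey points of its family. These run from -1.47 to 0.71 in the Usp family and from -0.34 to 0.64 among the conjugating enzymes. Among the activating enzymes they run from -0.05 to 0.49, close to Uba7 at 0.61 ± 0.10.

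Of 13 tested genes of type I interferon signalling (receptors, kinases, STAT and IRF factors and SOCS inhibitors), 4 rose, 0 fell and 9 did not pass, with a median log2 fold change of 0.31. Over all tested genes 1.19% were called higher and 0.518% lower. Without a filter on low counts 8 of the 13 were called in either direction, where 5.32% of all genes were. Irf7, an interferon-induced activator of interferon genes, stood at 7.30 (ff 2), 7.64 (ff 5), 45.7 (ko 1) and 45.2 (ko 3) CPM. It rose 6.08-fold with an adjusted p of 8.56e-05. Stat2 and Irf9 encode factors that act together at the response element searched above. Stat2 rose from 72.4 ± 5.55 to 133.2 ± 0.916 CPM (SD, n = 2 each; adjusted p = 0.00182). Irf9 rose from 172.7 ± 11.1 to 246.9 ± 20.2 CPM (adjusted p = 0.0358). This call was lost without ff library 5 (adjusted p = 0.0726) and with limma-voom (0.0580). The receptor chain gene Ifnar1 and the kinase gene Jak1, the most expressed of those not called, had log2 fold changes of -0.35 ± 0.09 and -0.26 ± 0.07 (SE), with adjusted p of 0.133 and 0.157. Ifnar1 passed as lower without ff library 5 (log2 fold change -0.49, adjusted p = 0.0239), and both passed as lower without a filter on low counts (adjusted p = 0.00239 for Ifnar1 and 0.0442 for Jak1).

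Transcripts of the interferons themselves were at the limit of detection. Of 21 interferon genes listed, 6 had a row in the table and 0 had enough counts to be tested. Ifnb1 had 1 count in ff library 5, 1 in ko library 3 and 0 in the other libraries. Ifng, the type II interferon made mainly by lymphocytes, had 7 counts in ko library 1, 5 in ko library 3 and 0 in both ff libraries. Ifnk ranged from 5 to 13 in ff and from 0 to 10 in ko. A difference in type I interferon transcripts was not detectable at this depth.

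Among proteins reported to carry ISG15, 6 of 21 tested genes rose and 1 fell, against 1.19% and 0.518% of all tested genes, with a median log2 fold change of 0.18. Many of these are interferon-induced themselves. Mx1, a dynamin-like antiviral GTPase, stood at 12.6 (ff 2), 10.2 (ff 5), 45.9 (ko 1) and 41.3 (ko 3) CPM, and rose 3.82-fold (adjusted p = 0.000449). Ifit1, which binds viral RNA ends, rose from 17.6 ± 2.86 to 62.2 ± 1.88 CPM (SD, n = 2 each). The RNA sensor genes Rigi and Ifih1 rose 2.05-fold and 1.99-fold, to 108.6 ± 3.90 and 111.8 ± 9.60 CPM. Of 15 genes whose products are reported to bind ISG15, ligate it, remove it or act on USP18, 1 rose and 0 fell, against the same shares of all genes. That gene, Rnf213, encodes a large ligase reported to bind ISG15-modified proteins, and it rose 2.05-fold, from 67.8 ± 0.833 to 139.0 ± 3.57 CPM (adjusted p = 0.000449). Sqstm1 and Itgb2, the most expressed of the others, had log2 fold changes of 0.21 ± 0.08 and 0.15 ± 0.07 (SE), and neither passed the threshold (adjusted p = 0.245 and 0.33). The count called in this list was 4 without a filter on low counts, where 5.32% of all genes were called.

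**Figure D5:**
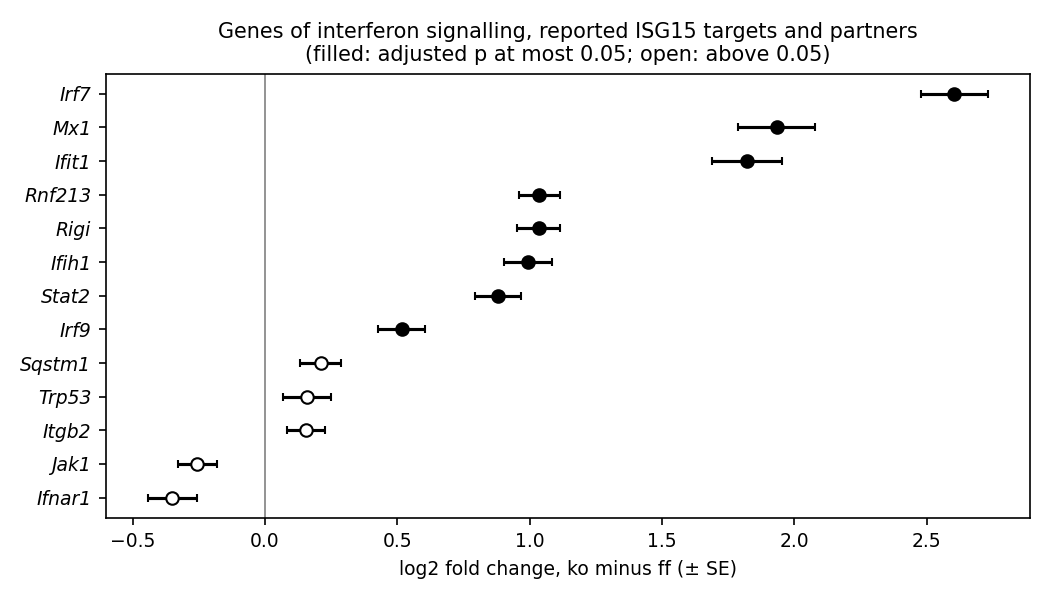
Log2 fold change, ko minus ff, with SE for the named genes of interferon signalling, reported ISG15 targets and ISG15 partners. Filled points have an adjusted p of at most 0.05. Irf7 lies farthest to the right at 2.60, and Ifnar1, Jak1, Itgb2, Trp53 and Sqstm1 are open.

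The genes whose levels followed the mean pattern of the 5 members most closely were sought among 13061 others by the Euclidean distance of their log2 CPM, centred over the 4 libraries. They were Ifi47 (distance 0.049), Rtp4 (0.067), Sp100 (0.094), Ifi205 (0.111) and Lgals3bp (0.125). Ifi47 had 99.3 (ff 2), 83.3 (ff 5), 223.7 (ko 1) and 218.0 (ko 3) CPM. Ifi205 had only 2.24 to 5.96 CPM and was not called by edgeR (adjusted p = 0.0875). The distances of the members to their own mean were 0.17 for Herc6, 0.21 for Ube2l6, 0.48 for Usp18, 0.61 for Isg15 and 0.71 for Uba7. They cannot be set against those of the 5 genes, which were picked as the nearest of 13061.

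Markers of other cells that could be in the isolates moved in part with these results. The 15 measured lymphocyte and natural killer markers summed to 239.7 to 271.8 CPM in ff and 238.6 to 270.3 in ko. EdgeR called 1 of 14 tested, Gzma, with 2 to 3 counts in ff against 44 to 46 in ko. DESeq2 and limma-voom called 0 in this list. Cd4, which did not pass the test, with 137.9 to 162.3 CPM in ff and 110.2 to 133.0 in ko, made up much of that sum, and the other 14 markers summed to 101.8 to 109.4 CPM in ff and 128.4 to 137.3 in ko. Of the 14 tested, 13 had a log2 fold change above 0 (51.0% of all genes did), the median was 0.78, and 8 had an unadjusted p under 0.05 (16.2% of all genes did). Among them Nkg7 stood at 1.82 and Klrb1c at 1.54, with adjusted p of 0.142 and 0.202. The natural killer receptor gene Ncr1 ranged from 0 to 3 counts in ff and from 15 to 16 in ko. The 8 plasmacytoid dendritic cell markers summed to 1095 to 1119 CPM in ff and 1306 to 1340 in ko, with 1 called, Bst2, which is itself interferon-induced. Without Bst2 the other 7 summed to 902.9 to 929.6 CPM in ff and 855.7 to 857.7 in ko. The 9 monocyte and neutrophil markers summed to 96.0 to 103.7 CPM in ff and 133.8 to 149.4 in ko. EdgeR called 1 of 5 tested, Ccr2, whose counts were 638 to 659 in ff against 944 to 1147 in ko. In this list DESeq2 called 1 and limma-voom 0. The 9 border-associated macrophage markers summed to 12586 to 14428 CPM in ff and 9721 to 11056 in ko, with 1 called by edgeR, Cd163, which fell. Mrc1 made up much of that sum, with 6558 to 7398 CPM in ff and 4828 to 5424 in ko. Of the 9, 3 had a log2 fold change above 0, the highest being Siglec1 at 1.06 (adjusted p = 0.190). At an unadjusted p under 0.05 there were 5, DESeq2 called 3 and limma-voom 1. The 9 measured microglial markers summed to 11357 to 11538 CPM in ff and 9469 to 9933 in ko, of which Tmem119 rose and Cx3cr1 fell. The 7 endothelial markers summed to 46.4 to 70.3 CPM in ff and 59.9 to 100.7 in ko, and the 8 of mural cells and fibroblasts to 292.4 to 439.6 in ff and 491.7 to 695.7 in ko, with 0 called by edgeR, DESeq2 or limma-voom in either list and 1 endothelial marker at an unadjusted p under 0.05. The 10 neural markers overlapped between groups in their sum, 780.3 to 952.5 CPM in ff and 659.7 to 864.6 in ko. Slc1a3 made up much of that sum, with 426.2 (ff 2), 575.1 (ff 5), 405.2 (ko 1) and 582.3 (ko 3) CPM. Of the 10, 2 had a log2 fold change above 0 (51.0% of all genes did), and the median was -0.27. At an unadjusted p under 0.05 there were 4 (16.2% of all genes), and 1 was called, Sox11, which fell. None of the measured markers in these lists was at 0 in all libraries. The part of these cells in the rise of the members was not tested.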

How the data were processed

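The 4 libraries were grouped by title. Poly(A)-enriched RNA gave 150-bp read pairs, which the authors mapped with HISAT2 2.0.5 (design text) to GRCm39 (submitters' processing notes). Values in the deposited table are raw counts for each gene, whole numbers without normalization by the authors. No source used here names the counter, its strand setting or the annotation release. Of 26054 lines, 3 without counts were left out.

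The filterByExpr function kept 15840 genes, with 99.9% of all counts. Scaling was by trimmed mean of M-values. Testing used edgeR 4.0.16 (R 4.3.3) with its robust quasi-likelihood method, a threshold of 0.05 and Benjamini-Hochberg adjustment over every tested gene. On counts simulated at these depths and spreads, edgeR, DESeq2 and limma-voom recovered the median size of 2-fold changes, and each made more false calls than the threshold allows. CPM (counts scaled to a common library size) were computed with edgeR on the scaled sizes. Within-group chi-square over degrees of freedom was 7.33 (ff) and 14.2 (ko). Similar transcripts were sought with blastn 2.17.0 at 85% identity or more. Reference coordinates are on GRCm38.

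All members were named, and from each list up to 4 called genes with the largest change and up to 2 of the most expressed not called. Other genes were named after their values were seen. Some genes counted in the lists are not reported here by name. The members and lists were chosen with earlier results of these data known. Alternatives were DESeq2 1.42.0, limma-voom (limma 3.58.1), scaling by DESeq2 size factors or none, testing without a filter or with at least 50 counts in 2 libraries, and each library left out in turn.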

Additional observations from a re-analysis of the deposited data

How the results depend on the processing

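Ube2l6, Herc6 and Usp18 kept their direction and stayed past the threshold under every alternative run. Their log2 fold changes ran from 1.23 to 1.37, from 1.05 to 1.22 and from 1.69 to 1.78 with each library left out in turn. Uba7 ran from 0.47 to 0.72 in the same way and missed the threshold without ff library 5. It also missed it with limma-voom, at a log2 fold change of 0.61. Isg15 ran from 1.35 to 2.08 and passed under none of the alternatives that gave it an adjusted p. DESeq2 gave it none, and the filter of 50 counts removed it. The number of members called higher was 3 or 4 in these runs. The number of genes called over the whole table was 270, and 554 with DESeq2, 175 with limma-voom, 1386 without a filter on low counts, and 198 to 1213 with each library left out. The cause of these differences was not tested. A lone library left in a group is assumed to vary like the other group. No paired analysis was possible because the groups share no replicate number. Isg15 (6 to 34 counts) and the interferon genes had few counts, which limits their precision.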
